A study of Mus musculus with 12 samples.

Results

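The comparison described here sets 3 libraries labelled as orthotopic mouse lung tumours treated with SFD@M against 3 libraries labelled as saline-treated controls, named Blank. The series holds 12 libraries. How far the labels match the transcripts found is described below. It was made across all genes, with the libraries chosen by their treatment labels. The tumours were made with LLC cells (Lewis lung carcinoma, a transplantable mouse line) that had been grown in culture before they were used to build the lung model. The treatment protocol names no lentivirus for the cells of either group. The labels call the preparation SFD@M without describing its makeup, and the strain, sex and age of the mice, the dose and the time of sampling are not stated there. Control libraries were recognised by the title word Blank and by their saline treatment, although their codes start with KD. Whether the replicates are different mice is not stated, so the p-values reflect only how far these samples spread, and that spread may be technical. The title of the series places the work among studies of deubiquitination and ferroptosis in cancer treatment.

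Ferroptosis is a form of cell death in which iron-driven peroxidation of membrane lipids outruns its repair. Cystine taken up by the SLC7A11 transporter feeds glutathione synthesis, and the enzyme GPX4 uses glutathione to reduce lipid peroxides. OTUB1 is a deubiquitinase, an enzyme that protects proteins from ubiquitin-dependent breakdown, and the cystine transporter is among the proteins it is known to stabilise. A tumour in the lung also contains or borders on host cells (alveolar and airway epithelium, vessels, fibroblasts and leukocytes), each with its own set of marker transcripts.

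Gene totals lay between 16981249 and 17247356 counts per library. Genes at or above 1 CPM (counts scaled to a common library total) numbered 11291 to 11303 in the Blank libraries and 14209 to 14319 in the SFD@M libraries. The groups also differed in how closely their libraries resembled each other. The variance between 2 libraries, over what counting alone gives, was 1.32 to 1.56 in Blank and 16.8 to 31.7 in SFD@M, and the median coefficient of variation of genes at 10 CPM or more was 2.95% in Blank and 8.5% in SFD@M. Every library was kept as a separate sample.

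Of 14824 genes tested, 7331 (49.5%) rose and 5731 (38.7%) fell in SFD@M, so 88.1% of the genes tested were called (edgeR, Benjamini-Hochberg adjusted p below 0.05). By a stricter test against a 2-fold change, 5165 genes were higher (34.8%) and 2629 lower (17.7%). The groups did not overlap in 90.1% of genes, with all SFD@M libraries higher in 50.3% and lower in 39.8%. A member count below is therefore read against these shares and says nothing by itself. A gene near 0 in either group passed the expression filter (filterByExpr) only through its level in the other group. For lists of such genes the direction of the calls was close to fixed in advance. The median log2 fold change of all genes was 0.23. On log2(TPM + 1) it was −0.03, a shift of −0.27, and Scgb1a1 held a mean of 235797 TPM (a length-corrected share of transcripts) in SFD@M against 1.3 TPM in Blank. Some small list medians are for that reason also given relative to all genes. Levels below are CPM after TMM scaling, listed for replicates 1, 2 and 3 in that order. Changes are log2 fold changes of SFD@M over Blank ± SE. This SE was worked back from the edgeR F statistic, as the absolute change over the square root of F. For genes with few counts in a group it can be smaller than the counting error. For genes with 0 counts in a group the ratio is a lower bound against 3 counts over the group's libraries. For genes with 1 to 3 counts a ratio, where printed, has its 95% counting interval in brackets, and some are given as levels only. For those with 1 count, leaving out the library that holds it leaves the group at 0. Intervals and bounds cover counting error only.

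**Figure D1:**
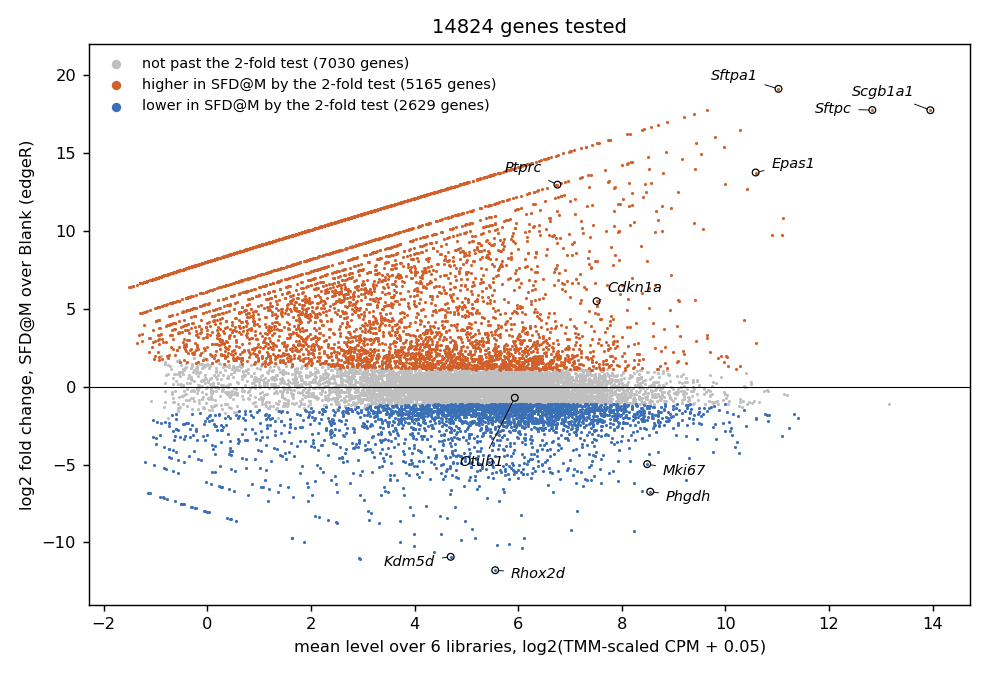
Log2 fold change of SFD@M over Blank (vertical axis, edgeR) against the mean level over 6 libraries (horizontal axis, log2 of TMM-scaled CPM + 0.05) for 14824 genes, with 5165 genes higher and 2629 lower by the 2-fold test. Rises reach much further than falls, and the parallel lines at upper left are genes with 0 or a few counts in Blank, whose fitted change depends on the prior count and is no measure of size.

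The makeup of the 6 libraries is described first with markers of the cell types that a lung tumour can hold. Their lists were chosen with earlier results of these data known, so they are no independent check. In the Blank libraries the host markers given here were at or near 0, while some genes of the lists below were well above 0. Ptprc, the gene of the surface protein CD45 that leukocytes share, was at 0, 0 and 0.059 CPM in Blank and at 217, 208 and 224 CPM in SFD@M. Cdh5, the cadherin of endothelial junctions, was at 0.0587, 0 and 0 CPM in Blank and at 448, 696 and 519 CPM in SFD@M. Nkx2-1, the transcription factor of the lung lineage, was at 0.0587, 0 and 0 CPM in Blank and at 148, 145 and 137 CPM in SFD@M. These markers were thus present in the SFD@M libraries and at or near 0 in the Blank libraries, which carry the same tissue label.

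Some transcripts of the Blank libraries were nearly missing from SFD@M. The 4 Y-linked genes tested summed to 372, 382 and 376 CPM in Blank and to 1.61, 0.175 and 0.582 CPM in SFD@M, which is 0.428%, 0.0466% and 0.154% of the Blank mean (95% counting intervals 0.284% to 0.618%, 0.0096% to 0.136% and 0.0741% to 0.284%). Kdm5d, a Y-linked histone demethylase gene, was at 52.5, 52.1 and 50.8 CPM in Blank and had 0, 0 and 0.0582 CPM in SFD@M. Of 9043 genes at 10 CPM or more in Blank, 8134 were also at 10 CPM or more in SFD@M and 103 were under 1 CPM there. The summed level of those 103, low in SFD@M by the way they were chosen, was 50.7, 38.4 and 46.8 CPM, or 1.15%, 0.869% and 1.06% of the Blank mean, and 98, 81 and 80 of the 103 had at least 1 count. In the other direction 1565 genes were at 10 CPM or more in SFD@M and under 1 CPM in Blank. Each change below comes from libraries that differ in this way, and treatment and cell makeup cannot be told apart in them. In bulk libraries fewer cells of a type and less RNA per cell cannot be told apart either.

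**Figure D2:**
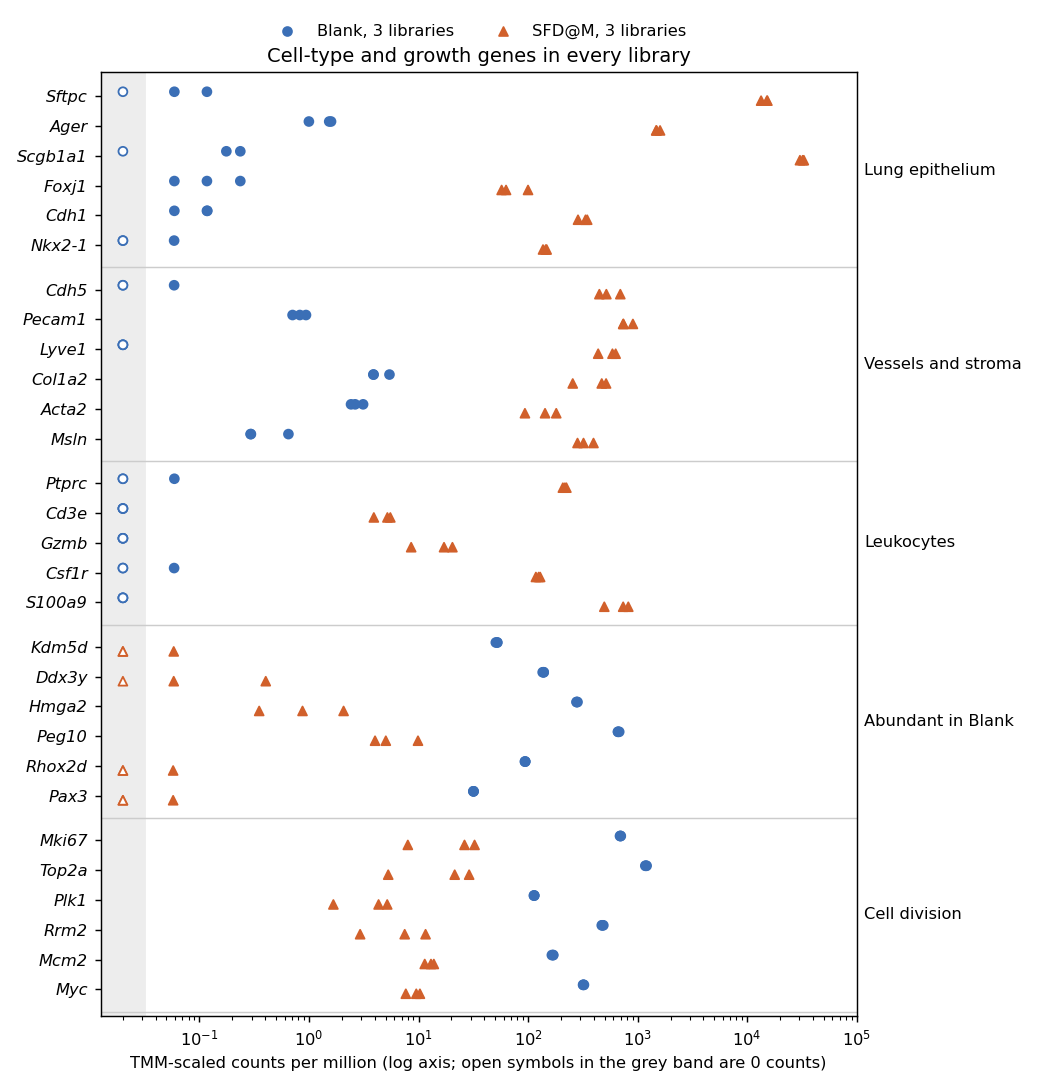
Level of 29 cell-type and growth genes in each of the 3 Blank (circles) and 3 SFD@M (triangles) libraries, in TMM-scaled CPM on a log axis, with open symbols for 0 counts. Markers of lung epithelium, vessels, stroma and leukocytes lie far to the right in SFD@M, Y-linked, oncofetal and cell division genes lie to the right in Blank, and no gene shown overlaps between the groups.

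Genes of the lung epithelium rose in SFD@M. All 18 tested genes of alveolar type 2 cells, which make surfactant, rose (median log2 fold change 12.14, or 12.11 with sparse genes at their bound), and their summed level went from 249 to 256 CPM in Blank to 27525 to 31165 CPM in SFD@M. Sftpc, surfactant protein C, was at 0.117, 0.059 and 0 CPM in Blank and at 13426, 15315 and 15185 CPM in SFD@M, a ratio of 248591 (95% counting interval 85063 to 1205440). Sftpa1, surfactant protein A, had 0 counts in Blank and 4115, 4345 and 4051 CPM in SFD@M, at least 70804-fold higher. A type 2 gene that Blank did hold was Abca3, the lipid pump of lamellar bodies, at 56.1, 52.9 and 53.7 CPM against 392, 430 and 406 CPM (2.92 ± 0.06, adjusted p = 1.3e-08). The 14 tested genes of alveolar type 1 cells, the flat cells of gas exchange, all rose too (median 7.05). Ager, the receptor that marks them, was at 0.998, 1.59 and 1.53 CPM in Blank and at 1479, 1605 and 1490 CPM in SFD@M (10.11 ± 0.14, adjusted p = 4.3e-09). In this list Cav1, a coat protein of caveolae that many cell types make, was already at 724, 727 and 741 CPM in Blank, against 1504, 1771 and 1621 CPM (1.16 ± 0.08, adjusted p = 2.9e-06).

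Airway genes followed the same direction. All 14 secretory and all 14 ciliated genes tested rose (medians 12.60 and 9.49, or 12.43 and 8.49 with sparse genes at their bound). These medians were 13.88 without Blank replicate 1 for secretory genes and 10.32 without Blank replicate 3 for ciliated genes. Scgb1a1, the main secreted protein of club cells, was at 0.176, 0.236 and 0 CPM in Blank and at 32961, 30386 and 32149 CPM in SFD@M (17.75 ± 0.29, adjusted p = 6.1e-09, and 18.34 without Blank replicate 2). Per unit length it was the most abundant gene of the SFD@M libraries among those named here, ahead of Sftpc at 37229 TPM. Foxj1, the transcription factor of motile cilia, was at 0.117, 0.059 and 0.236 CPM in Blank and at 57.4, 63 and 100 CPM in SFD@M (8.99 ± 0.43, adjusted p = 6e-07, and 9.58 without Blank replicate 3). Of 15 tested genes of epithelial adhesion and keratins, 14 rose and Krt8 fell. Cdh1, E-cadherin, rose from 0.117, 0.059 and 0.118 CPM to 286, 335 and 347 CPM (11.58 ± 0.17, adjusted p = 4.9e-09). Krt8, a simple-epithelial keratin, was at 314, 319 and 320 CPM in Blank and at 162, 165 and 220 CPM in SFD@M (−0.80 ± 0.12, adjusted p = 0.00031). Its usual partner Krt18 went the other way, from 4.75, 4.31 and 4.42 CPM in Blank to 119, 99.8 and 147 CPM (4.76 ± 0.17, adjusted p = 1.2e-07). Among 12 transcription factor genes of the lung lineage, 11 rose, and Sox9, a factor of the embryonic lung tip, fell from 9.45, 9.62 and 8.73 CPM to 1.67, 0.643 and 1.16 CPM (−2.99 ± 0.28, adjusted p = 2.4e-05).

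**Figure D3:**
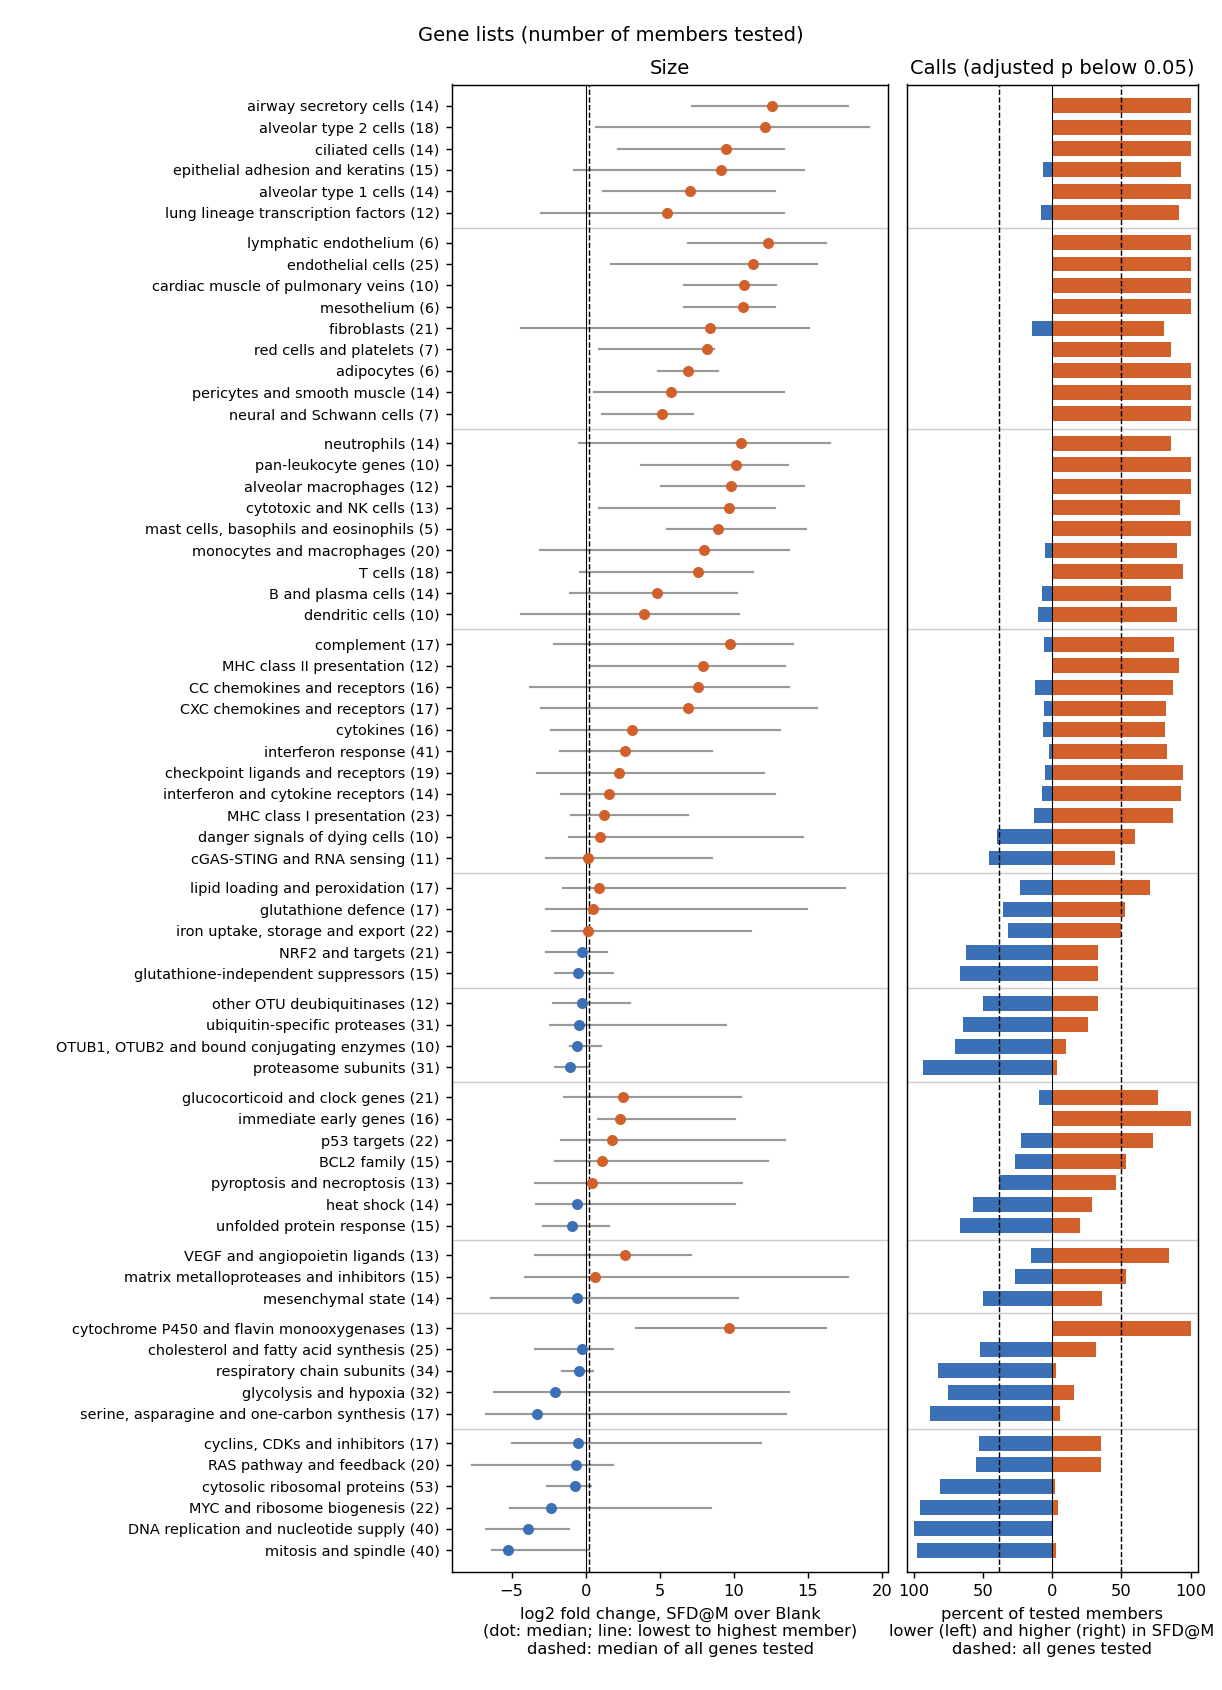
Gene lists in SFD@M against Blank, with the number of tested members in brackets. Left, median log2 fold change (dot) and the lowest to highest member (line), with the median of all genes at 0.23 dashed. Right, percent of tested members lower (blue) and higher (orange) by edgeR, with the shares over all genes, 38.7% and 49.5%, dashed. Lists of lung, vessel and immune cells lie to the right, growth lists to the left, and ferroptosis lists near the middle.

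Vessel genes rose throughout the list. All 25 tested endothelial genes (median 11.30, or 9.83 with sparse genes at their bound) and all 6 lymphatic ones were higher. In Blank, 18 of the 25 endothelial genes and all 6 lymphatic genes were under 1 CPM, while 3 of the 25 were at 10 CPM or more. Pecam1, which encodes the endothelial adhesion protein CD31, was at 0.939, 0.708 and 0.825 CPM in Blank and at 743, 907 and 739 CPM in SFD@M (9.90 ± 0.16, adjusted p = 5.6e-09). Lyve1, a hyaluronan receptor of lymphatic vessels, had 0 counts in Blank and 631, 590 and 437 CPM in SFD@M, at least 9385-fold higher. Epas1, the hypoxia-responsive factor HIF2-alpha that is abundant in lung endothelium, was at 0.176, 0.413 and 0.059 CPM in Blank and at 3656, 3104 and 2457 CPM in SFD@M (13.75 ± 0.33, adjusted p = 2.5e-08, and 14.58 without Blank replicate 2).

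Stromal genes rose in most cases. Of 21 tested fibroblast genes 17 rose and 3 fell, namely Lum, Col3a1 and Serpinf1. Col1a2, a chain of type I collagen, rose from 3.87, 5.43 and 3.89 CPM to 256, 471 and 516 CPM (6.56 ± 0.34, adjusted p = 9.1e-07). In contrast Col3a1, the chain of type III collagen, was at 2474, 2469 and 2520 CPM in Blank and at 364, 689 and 752 CPM in SFD@M (−2.05 ± 0.25, adjusted p = 0.00013). Serpinf1, which encodes the anti-angiogenic protein PEDF, was at 372, 396 and 379 CPM in Blank and at 16.7, 15.4 and 23.3 CPM in SFD@M (−4.37 ± 0.15, adjusted p = 1.1e-07). Pdgfra, a receptor that marks fibroblasts, was present in both groups, at 172, 175 and 179 CPM against 344, 360 and 325 CPM (0.97 ± 0.06, adjusted p = 1.5e-06). All 14 genes of pericytes and smooth muscle rose, among them Acta2, smooth muscle actin, from 2.64, 2.42 and 3.12 CPM to 93.7, 143 and 181 CPM (5.67 ± 0.30, adjusted p = 1.1e-06). Mesothelial (6 of 6), cardiac muscle (10 of 10) and adipocyte (6 of 6) genes rose as well. In Blank all 6 mesothelial, all 10 cardiac muscle and 7 of 8 adipocyte genes, tested or not, were under 1 CPM. The limit of the filter applies to these counts too. Myh6, the heart myosin that the muscle sleeve of lung veins also expresses in mice, had 1 count over the Blank libraries and 99, 74.4 and 104 CPM in SFD@M, a ratio of 4716 (846 to 186266). Muscle of lung veins and of the heart cannot be told apart by this gene.

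Leukocyte genes were higher in SFD@M. All 10 pan-leukocyte genes rose (median 10.19, and 11.02 without Blank replicate 1). Of 18 tested T cell genes 17 rose, and of 13 cytotoxic and natural killer genes 12 rose, with none lower in either list. Tested or not, 17 of 19 T cell genes and 15 of 16 cytotoxic genes were under 1 CPM in Blank. The limit of the filter given above applies to these counts. Cd3e, a chain of the T cell receptor complex, had 0 counts in Blank and 3.91, 5.2 and 5.53 CPM in SFD@M, at least 82.9-fold higher. Cd8a, the coreceptor of cytotoxic T cells, was at 0.117, 0.177 and 0.295 CPM in Blank and at 12.4, 13.8 and 11.5 CPM in SFD@M (5.95 ± 0.26, adjusted p = 2.8e-07). Gzmb, the granzyme of cytotoxic granules, had 0 counts in Blank and 8.57, 17.1 and 20.4 CPM in SFD@M, at least 261-fold higher. The SFD@M libraries lay above all Blank libraries in each of these genes. Ifng, interferon gamma, had 0 counts in Blank and only 0.518, 0.351 and 0.756 CPM in SFD@M, too few to enter the test and at least 9.19-fold higher.

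Myeloid genes rose in most cases. Of 20 tested genes of monocytes and macrophages 18 rose and Spp1 fell. Csf1r, the receptor for macrophage growth factor, had 1 count over the Blank libraries and 129, 118 and 125 CPM in SFD@M, a ratio of 6318 (1134 to 249530). Spp1, osteopontin, was at 2008, 1968 and 2010 CPM in Blank and at 290, 218 and 184 CPM in SFD@M (−3.11 ± 0.17, adjusted p = 9.4e-07). The summed level of the macrophage list was 2775 to 2828 CPM in Blank and 2109 to 2228 CPM in SFD@M although 18 members rose. All 12 alveolar macrophage genes and 12 of 14 neutrophil genes rose. S100a9, a calcium-binding protein of neutrophils, had 0 counts in Blank and 739, 497 and 823 CPM in SFD@M, at least 11656-fold higher. Of 14 tested B and plasma cell genes 12 rose, and Sdc1, which epithelial and tumour cells also express, fell from 470, 480 and 467 CPM to 221, 236 and 234 CPM (−1.03 ± 0.05, adjusted p = 7.2e-07).

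Antigen presentation genes were higher in SFD@M. Of 23 tested class I genes 20 rose and 3 fell (median 1.27, or 1.04 above that of all genes), and of 12 class II genes 11 rose and none fell (median 7.94, or 6.26 with sparse genes at their bound and 2.58 on log2(TPM + 1)). H2-K1, a class I heavy chain, was at 144, 146 and 146 CPM in Blank and at 1240, 1547 and 1583 CPM in SFD@M (3.33 ± 0.11, adjusted p = 7.1e-08). The 3 class I genes that fell, Calr, Canx and Pdia3, encode chaperones of the endoplasmic reticulum that fold many other proteins. Calr was at 1135, 1137 and 1136 CPM in Blank and at 364, 649 and 725 CPM in SFD@M (−0.97 ± 0.23, adjusted p = 0.0048). H2-Aa, a class II chain made by antigen-presenting cells, had 1 count over the Blank libraries and 215, 333 and 358 CPM in SFD@M, a ratio of 15383 (2761 to 607601). Ciita, the activator of class II genes, was at 0.939, 1.12 and 1.18 CPM in Blank and at 18.9, 23 and 21.2 CPM in SFD@M (4.27 ± 0.15, adjusted p = 1.1e-07).

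Interferon-induced genes rose in most cases, while sensors of foreign nucleic acid were divided. Of 41 tested interferon response genes 34 rose and Socs1, a feedback inhibitor, fell (median 2.68). Gbp2, an interferon-induced GTPase, was at 2.94, 3.31 and 3.71 CPM in Blank and at 142, 186 and 382 CPM in SFD@M (6.15 ± 0.47, adjusted p = 7.8e-06). Among 11 genes of the cGAS-STING and RNA sensing pathways 5 rose and 5 fell, beside 49.5% and 38.7% of all genes tested. Cgas, the sensor of DNA in the cytosol, fell from 14, 15.3 and 14.8 CPM to 3.22, 6.02 and 5.64 CPM (−1.57 ± 0.22, adjusted p = 0.00023), and Sting1, its adaptor, fell from 50.6, 54.3 and 51.9 CPM to 25.5, 27.6 and 39.2 CPM (−0.76 ± 0.15, adjusted p = 0.0019). The median of this list, 0.17 (−0.06 relative to all genes), turned to −0.21 on log2(TPM + 1) and to −0.42 without SFD@M replicate 3.

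Promoter sequences are shown for the gene groups that moved together, since elements known to read interferon and cell cycle signals can be found in them. Promoters of 300 bases (250 before to 50 after the start, RefSeq annotation, mouse build GRCm38.p6) were searched on both strands for 8 short motifs. A match is a description and no evidence of binding. A pair of GAAA repeats 2 bases apart, the core of the interferon-stimulated response element, was in 24 of 36 promoters of 31 interferon response genes and in 3.44% of all 32851 promoters. The CCAAT box was in 8 of 10 promoters of 9 class II genes and in 37.4% of all promoters. Ifit3, an interferon-induced antiviral gene, rose from 1.47, 1.48 and 1.3 CPM to 91, 78.7 and 61.9 CPM (5.76 ± 0.19, adjusted p = 9.1e-08). Ifit3 and H2-Aa are the first listed members with the motif once genes of a chromosome left out of the choice are passed over. Their matches are in capitals.
Ifit3 (chr19:34583279-34583578, plus strand, GRCm38.p6): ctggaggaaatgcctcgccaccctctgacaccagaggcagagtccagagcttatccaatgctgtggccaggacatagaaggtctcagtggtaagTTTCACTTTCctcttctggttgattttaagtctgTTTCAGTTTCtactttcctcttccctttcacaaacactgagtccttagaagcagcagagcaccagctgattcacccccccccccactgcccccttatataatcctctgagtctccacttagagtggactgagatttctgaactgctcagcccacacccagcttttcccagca
H2-Aa (chr17:34287774-34288073, minus strand, GRCm38.p6): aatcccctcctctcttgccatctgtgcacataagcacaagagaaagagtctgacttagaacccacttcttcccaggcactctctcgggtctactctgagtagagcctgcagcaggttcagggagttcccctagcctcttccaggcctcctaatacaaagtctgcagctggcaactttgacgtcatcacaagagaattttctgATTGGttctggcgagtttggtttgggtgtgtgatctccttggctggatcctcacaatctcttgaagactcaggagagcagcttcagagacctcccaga
Ifit3 has 2 matches of the paired GAAA repeats, read on the opposite strand, and H2-Aa has 1 CCAAT box, also on the opposite strand.

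Checkpoint genes rose in 18 of 19 cases. Cd274, which encodes PD-L1, was at 9.39, 9.39 and 9.85 CPM in Blank and at 26.8, 21.3 and 27.6 CPM in SFD@M (1.40 ± 0.12, adjusted p = 1.2e-05). Its receptor gene Pdcd1 had 0 counts in Blank and 0.23, 0.935 and 0.873 CPM in SFD@M, too few to be tested. Cd276, which encodes the B7-H3 ligand that many tumours carry, was the member that fell, from 64.6, 65.1 and 62.6 CPM to 6.84, 7.01 and 5.41 CPM (−3.32 ± 0.10, adjusted p = 5.2e-08). Tigit, an inhibitory receptor of T and natural killer cells, rose by counts, from 39.6, 41.3 and 41.9 CPM to 90.4, 114 and 98.7 CPM (1.30 ± 0.09, adjusted p = 3.4e-06), but turned lower on log2(TPM + 1) (−0.79, limma adjusted p = 0.0011). Its counts came mostly from a predicted transcript (610 to 656 estimated counts in Blank and 1565 to 1934 in SFD@M), while the curated transcript went from 54.2 to 78.6 down to 5.72 to 12.5 counts.

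Chemokine genes rose in most cases. Of 17 CXC and 16 CC chemokine and receptor genes tested, 14 rose in each list. Cxcl12, a stromal chemokine that holds lymphocytes and stem cells, had 1 count over the Blank libraries and 230, 312 and 207 CPM in SFD@M, a ratio of 12720 (2283 to 502424). The neutrophil attractant Cxcl1 fell from 10.2, 11.7 and 11.9 CPM to 0.863, 0.935 and 2.44 CPM (−2.99 ± 0.35, adjusted p = 8.8e-05, and −3.63 without SFD@M replicate 3). Ccl2, the monocyte attractant, fell from 88.5, 94.8 and 93.8 CPM to 3.45, 4.44 and 12.3 CPM (−3.77 ± 0.39, adjusted p = 4.3e-05, and −4.54 without SFD@M replicate 3), while Ccr2, its receptor, had 0 counts in Blank and 130, 65.9 and 106 CPM in SFD@M. Csf1, the macrophage growth factor, fell from 451, 460 and 460 CPM to 103, 88.6 and 84.4 CPM (−2.31 ± 0.08, adjusted p = 1.1e-07) while its receptor gene Csf1r rose. Complement genes rose in 15 of 17 cases, with C3, the central component, going from 4.93, 5.73 and 4.78 CPM to 3653, 5080 and 4336 CPM (9.72 ± 0.19, adjusted p = 1.1e-08).

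Genes of cell division were lower in SFD@M. Of 40 mitosis genes tested 39 fell (median −5.22) and of 40 replication and nucleotide supply genes all 40 fell (median −3.88). Summed mitosis transcripts went from 9227 to 9301 CPM in Blank to 195, 338 and 394 CPM in SFD@M, or 3.33% of the Blank mean, and replication transcripts to 7.96%. Mki67, which encodes the Ki-67 antigen of dividing cells, was at 703, 691 and 698 CPM in Blank and at 7.99, 26.3 and 32.5 CPM in SFD@M (−4.97 ± 0.45, adjusted p = 2.1e-05). Top2a, the topoisomerase that untangles chromosomes, went from 1210, 1177 and 1191 CPM to 5.29, 21.4 and 29 CPM (−6.01 ± 0.54, adjusted p = 2e-05). The replicative helicase gene Mcm3 went from 542, 557 and 549 CPM to 17.9, 24.1 and 18.1 CPM (−4.78 ± 0.12, adjusted p = 2.8e-08). The exception in the mitosis list was Pttg1, securin, at 38.4, 38.5 and 38.7 CPM in Blank and 50.9, 44 and 41.5 CPM in SFD@M (0.24 ± 0.08, adjusted p = 0.027). That call was lost without any single Blank replicate (adjusted p 0.079 to 0.085) and the sign turned on log2(TPM + 1), at −0.19.

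The same promoter search found TTTGAA, the cell cycle homology element of mitotic genes, in 27 of 36 promoters of 34 mitosis genes and in 17.9% of all promoters. The CCAAT box was likewise in 27 of those 36 promoters. TTTNGCGC, a core of the E2F site, was in 12 of 38 promoters of 33 replication genes and in 1.38% of all promoters. In the replication promoters the CCAAT box was in 23 of 38 and TTTGAA in 5 of 38, and TTTNGCGC was in 3 of the 36 mitosis promoters. The first listed members with these motifs, picked with the same chromosome left out, are shown. Mki67 has TTTGAA and CCAAT in capitals and Mcm3 has TTTNGCGC in capitals.
Mki67 (chr7:135716330-135716629, minus strand, GRCm38.p6): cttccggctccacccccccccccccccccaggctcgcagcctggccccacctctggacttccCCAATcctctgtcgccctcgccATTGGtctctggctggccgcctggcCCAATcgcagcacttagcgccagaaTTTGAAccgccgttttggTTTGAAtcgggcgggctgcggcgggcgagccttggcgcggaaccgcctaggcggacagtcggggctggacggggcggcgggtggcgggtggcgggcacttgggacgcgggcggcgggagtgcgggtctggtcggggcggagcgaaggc
Mcm3 (chr1:20820263-20820562, minus strand, GRCm38.p6): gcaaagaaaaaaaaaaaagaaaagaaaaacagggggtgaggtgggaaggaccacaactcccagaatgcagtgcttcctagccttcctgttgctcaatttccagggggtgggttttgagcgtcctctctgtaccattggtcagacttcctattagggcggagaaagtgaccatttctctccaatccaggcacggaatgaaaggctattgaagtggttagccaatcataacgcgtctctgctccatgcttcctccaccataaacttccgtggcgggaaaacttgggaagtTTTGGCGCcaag
Mki67 has 2 TTTGAA and 3 CCAAT matches and Mcm3 has 1 match of TTTNGCGC. Of the other motifs searched, TTCNNNGAA, the gamma-activated site, was in 11 of the 36 interferon response promoters and in 8.3% of all promoters. TTCGAA, TGACNNNGC and CACGTG were in 1.56%, 12.4% and 7.15% of all promoters and in 3, 9 and 3 of the 36 mitosis promoters.

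Growth-linked genes outside the cell cycle lists fell in most cases. Of 22 genes of MYC and ribosome biogenesis 21 fell (median −2.37). Myc, the growth-promoting transcription factor, was at 318, 324 and 320 CPM in Blank and at 10.3, 7.66 and 9.54 CPM in SFD@M (−5.13 ± 0.10, adjusted p = 1.1e-08), and Mycn, with 0 counts in Blank, reached 3.05, 2.4 and 2.15 CPM, at least 43-fold higher. Of 53 cytosolic ribosomal protein genes 43 fell and Rps19 rose (median −0.72, or −0.95 relative to all genes). Rplp0, a stalk protein of the large subunit, went from 2813, 2772 and 2843 CPM to 876, 688 and 785 CPM (−1.84 ± 0.10, adjusted p = 8.6e-07). Rps19 was at 355, 360 and 358 CPM in Blank and 520, 406 and 423 CPM in SFD@M (0.33 ± 0.10, adjusted p = 0.012), and the change was 0 to 2 decimals and not called on log2(TPM + 1) (limma adjusted p = 0.96). Many ribosomal protein genes have near-identical pseudogenes, among which the authors' counting could split reads. Of 17 genes of cyclins, their kinases and inhibitors 6 rose and 9 fell (median −0.52). Cdkn1a, which encodes p21, rose from 8.98, 7.67 and 7.25 CPM to 371, 330 and 372 CPM (5.49 ± 0.10, adjusted p = 8.6e-09), and Cdkn1c, which encodes p57, had 1 count over the Blank libraries and 46, 42.7 and 46 CPM in SFD@M, a ratio of 2286 (410 to 90289). Ccne1, the cyclin of the entry into replication, fell from 28.9, 29.3 and 30.1 CPM to 0.748, 1.23 and 2.62 CPM (−4.26 ± 0.32, adjusted p = 6.6e-06, and −4.89 without SFD@M replicate 3).

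Genes of glycolysis and of amino acid synthesis fell in most cases. Of 32 glycolysis and hypoxia genes 24 fell and 5 rose (median −2.07). Pgk1, a glycolytic kinase, was at 2150, 2202 and 2203 CPM in Blank and at 151, 140 and 164 CPM in SFD@M (−3.85 ± 0.08, adjusted p = 1.5e-08). Ldha, lactate dehydrogenase A, went from 1493, 1516 and 1504 CPM to 261, 280 and 320 CPM (−2.39 ± 0.09, adjusted p = 1.3e-07). Among the 5 that rose were Epas1 and Vegfa, which are also markers of vessels and of alveolar type 1 cells. Vegfa, the growth factor of vessels, went from 177, 177 and 176 CPM to 713, 995 and 792 CPM (2.24 ± 0.12, adjusted p = 1.1e-06). Of 17 genes of serine, asparagine and folate-linked carbon synthesis 15 fell (median −3.32). Phgdh, which opens serine synthesis, was at 750, 743 and 735 CPM in Blank and at 7.13, 6.49 and 7.21 CPM in SFD@M (−6.74 ± 0.07, adjusted p = 4e-09). Atf4, a transcription factor known to drive many of these genes, went from 599, 625 and 620 CPM to 155, 146 and 152 CPM (−2.02 ± 0.06, adjusted p = 3.6e-08). Cholesterol and fatty acid synthesis genes were divided, with 8 of 25 higher and 13 lower (median −0.25), and their summed level was 106% of the Blank mean. Scd1, a fatty acid desaturase that type 2 cells also make, rose from 440, 456 and 446 CPM to 1291, 1897 and 1741 CPM (1.88 ± 0.14, adjusted p = 5.9e-06), and Sqle, an enzyme of cholesterol synthesis, fell from 68, 70.8 and 68.9 CPM to 37.9, 38.2 and 51.6 CPM (−0.70 ± 0.12, adjusted p = 0.00077). Respiratory chain genes fell in 28 of 34 cases, by a median of −0.43, and all 13 cytochrome P450 and flavin monooxygenase genes rose (median 9.71, or 10.16 with sparse genes at their bound). Cyp2f2, a drug-metabolising enzyme of club cells, rose from 0.411, 0.354 and 0.472 CPM to 2074, 2785 and 3322 CPM (12.67 ± 0.30, adjusted p = 2.2e-08).

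Otub1 was lower in SFD@M. It stood at 78.8, 74.7 and 74.3 CPM in Blank and at 46.3, 45.2 and 47.5 CPM in SFD@M, with no overlap (−0.71 ± 0.05, adjusted p = 5.8e-06). An exact two-sided permutation test of the 6 values gave p = 0.1, the smallest that 3 against 3 allows, and the fall did not pass the 2-fold test. Otub1 is 1 of the 5731 genes that fell, 38.7% of those tested. Of 10 genes of OTUB1, OTUB2 and the ubiquitin-conjugating enzymes they bind, 7 fell and Otub2 rose (median −0.61, or −0.84 relative to all genes). Ube2n, the enzyme of K63-linked chains that OTUB1 binds and holds back, went from 202, 196 and 195 CPM to 94.3, 106 and 114 CPM (−0.92 ± 0.07, adjusted p = 8.2e-06). Otub2, the paralog, was at 5.64, 5.49 and 4.83 CPM in Blank and at 11.7, 10.9 and 9.89 CPM in SFD@M (1.03 ± 0.13, adjusted p = 0.00015).

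Other ubiquitin genes were lower in most cases. Of 12 other OTU deubiquitinase genes 4 rose and 6 fell. Tnfaip3, which encodes the inflammation brake A20, rose from 4.11, 4.01 and 4.48 CPM to 35.2, 34.8 and 32.6 CPM (3.02 ± 0.09, adjusted p = 5.2e-08). Of 31 ubiquitin-specific protease genes 20 fell and 8 rose. Usp14, a proteasome-bound protease, went from 146, 148 and 143 CPM to 59.8, 66.9 and 63.9 CPM (−1.20 ± 0.06, adjusted p = 4.1e-07), and Usp18, an interferon-induced protease for ISG15, rose from 3.76, 2.3 and 3.54 CPM to 22, 24 and 29.2 CPM (2.97 ± 0.20, adjusted p = 3e-06). Proteasome subunit genes fell in 29 of 31 cases (median −1.07). Psmd1, a base subunit of the regulatory particle, went from 376, 383 and 368 CPM to 109, 117 and 110 CPM (−1.75 ± 0.05, adjusted p = 5.7e-08).

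Ferroptosis genes moved in both directions within each list, as did all genes tested (49.5% higher and 38.7% lower). Of 17 glutathione defence genes 9 rose and 6 fell (median 0.48, or 0.25 relative to all genes). On log2(TPM + 1) 7 rose and 8 fell by limma. Slc7a11, the cystine transporter, was at 153, 158 and 143 CPM in Blank and at 18.2, 26.8 and 27.1 CPM in SFD@M (−2.65 ± 0.15, adjusted p = 1.2e-06). The catalytic subunit of glutathione synthesis, Gclc, rose from 89, 85.8 and 90.3 CPM to 191, 196 and 213 CPM (1.18 ± 0.06, adjusted p = 5.6e-07), while its modifier subunit Gclm fell from 69, 67.2 and 71.4 CPM to 36.2, 30.6 and 40 CPM (−0.96 ± 0.10, adjusted p = 3.4e-05). The 2 subunits thus went apart in every library. Gpx4, the lipid peroxide reductase, was at 183, 176 and 190 CPM in Blank and at 305, 232 and 228 CPM in SFD@M (0.48 ± 0.11, adjusted p = 0.0045), and its call was lost on log2(TPM + 1) (0.18, limma adjusted p = 0.15). Gpx3, the plasma glutathione peroxidase that lung also makes, had 2 counts over the Blank libraries and 1700, 1441 and 1288 CPM in SFD@M, a ratio of 37598 (10408 to 310461). Chac1, a glutathione-degrading enzyme often used as a ferroptosis marker, fell from 17.1, 18.7 and 15.9 CPM to 3.28, 4.56 and 2.33 CPM (−2.34 ± 0.22, adjusted p = 2.3e-05).

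Of 15 glutathione-independent suppressors 5 rose and 10 fell (median −0.51). Aifm2, which encodes the ubiquinone reductase FSP1, was at 15.8, 18.3 and 18.9 CPM in Blank and at 30.9, 26.1 and 25.7 CPM in SFD@M (0.64 ± 0.11, adjusted p = 0.00071). Dhodh, its mitochondrial counterpart, fell from 13.4, 13.3 and 13.9 CPM to 9.32, 8.94 and 9.25 CPM (−0.56 ± 0.10, adjusted p = 0.00076). Of 17 genes of lipid loading and peroxidation 12 rose and 4 fell (median 0.88). Acsl4, which loads polyunsaturated fatty acids for membrane lipids, was at 127, 132 and 125 CPM in Blank and at 184, 214 and 251 CPM in SFD@M (0.76 ± 0.11, adjusted p = 0.00026). Ptgs2, cyclooxygenase 2, another transcript used as a ferroptosis marker, fell from 47.3, 51.5 and 52.5 CPM to 19.4, 25.2 and 32.5 CPM (−0.97 ± 0.17, adjusted p = 0.00091). Cd36, a fatty acid receptor of endothelium and macrophages, had 0 counts in Blank and 1185, 1527 and 1334 CPM in SFD@M, at least 22894-fold higher. For this gene too, treatment and cell makeup cannot be told apart.

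Iron genes moved in both directions, as did all genes tested (49.5% higher and 38.7% lower). Of 22 tested 11 rose and 7 fell, and the list median of 0.18 (−0.05 relative to all genes) turned to −0.14 on log2(TPM + 1). Tfrc, the transferrin receptor for iron uptake, went from 529, 522 and 530 CPM to 108, 133 and 91 CPM (−2.25 ± 0.13, adjusted p = 1.5e-06). Fth1, the ferritin heavy chain that stores iron, went from 2683, 2785 and 2823 CPM to 2095, 1784 and 1945 CPM (−0.51 ± 0.08, adjusted p = 0.00048). Slc40a1, the iron exporter ferroportin, rose from 15.6, 19.6 and 18.5 CPM to 55.6, 37.3 and 35.6 CPM (1.26 ± 0.19, adjusted p = 0.00037). Hmox1, which breaks down heme, rose from 27.6, 28.2 and 26.3 CPM to 68.3, 46.9 and 53.7 CPM (1.04 ± 0.13, adjusted p = 0.00015), a call that was lost in a fit over all 12 libraries (adjusted p = 0.1). Of 21 genes of NRF2 and its targets 7 rose and 13 fell (median −0.27, or −0.50 relative to all genes). Nfe2l2, which encodes NRF2, was at 195, 199 and 196 CPM in Blank and at 274, 265 and 268 CPM in SFD@M (0.45 ± 0.05, adjusted p = 3.6e-05), while its target Nqo1, a quinone reductase, fell from 31.5, 28.2 and 27 CPM to 10.9, 5.08 and 4.42 CPM (−2.08 ± 0.31, adjusted p = 0.00036).

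**Figure D4:**
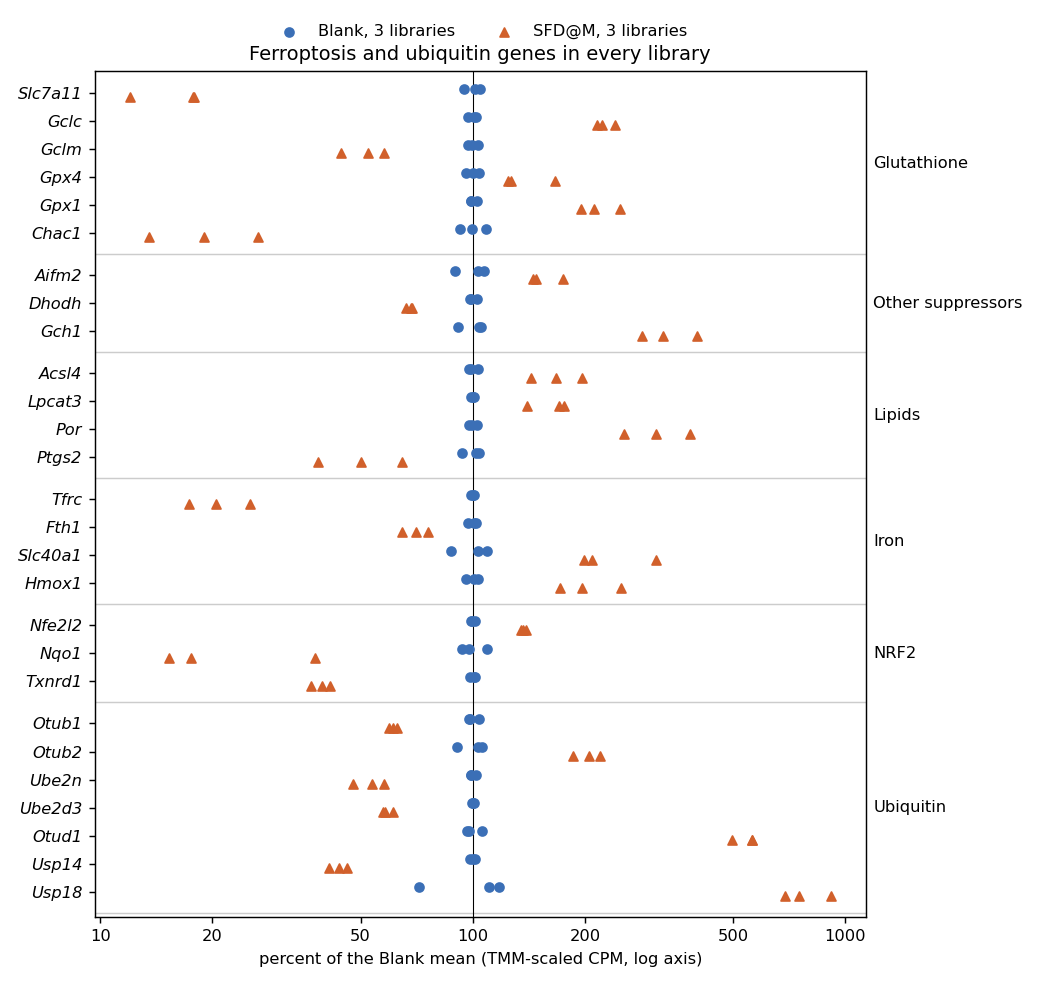
Ferroptosis and ubiquitin genes in each library as a percent of the Blank mean (TMM-scaled CPM, log axis), with 3 Blank libraries as circles and 3 SFD@M libraries as triangles. Slc7a11, Tfrc, Chac1 and Nqo1 lie lowest, Otud1 and Usp18 highest, Otub1 lies to the left of its Blank libraries, and no gene shown overlaps between the groups.

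Stress and death genes did not share a direction, and neither did all genes tested (49.5% higher and 38.7% lower). Of 22 p53 targets 16 rose and 5 fell (median 1.81). Ccng1, cyclin G1, rose from 65.7, 66.7 and 64.2 CPM to 360, 365 and 394 CPM (2.51 ± 0.06, adjusted p = 1.9e-08), while Trp53 itself fell from 117, 120 and 118 CPM to 36.3, 39.5 and 36.4 CPM (−1.66 ± 0.05, adjusted p = 7.7e-08). Of 15 BCL2 family genes 8 rose and 4 fell. Bcl2, an inhibitor of apoptosis, fell from 126, 127 and 120 CPM to 30.4, 32.1 and 26.7 CPM (−2.06 ± 0.08, adjusted p = 1.2e-07), and its relative Mcl1 rose from 259, 256 and 263 CPM to 565, 582 and 573 CPM (1.14 ± 0.05, adjusted p = 3.3e-07). Pyroptosis and necroptosis genes were split, with 6 higher and 5 lower of 13. All 16 immediate early genes rose (median 2.35), among them Fos from 0.822, 0.413 and 0.177 CPM to 99.8, 35.7 and 30.1 CPM (6.85 ± 0.75, adjusted p = 6.1e-05, and 6.12 without SFD@M replicate 1 or 7.50 without Blank replicate 1). Genes of the unfolded protein response fell in 10 of 15 cases, with the chaperone gene Hspa5 going from 1807, 1870 and 1801 CPM to 446, 788 and 945 CPM (−1.33 ± 0.25, adjusted p = 0.0013). Glucocorticoid-responsive and clock genes rose in 16 of 21 cases, with Tsc22d3, a glucocorticoid-induced leucine zipper gene, going from 22.5, 21.7 and 23.6 CPM to 417, 424 and 400 CPM (4.19 ± 0.06, adjusted p = 4.8e-09).

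Genes of cell state and matrix were mixed, as were all genes tested (49.5% higher and 38.7% lower). Of 14 mesenchymal genes 5 rose and 7 fell. S100a4, a calcium-binding protein of motile cells, was at 1222, 1225 and 1191 CPM in Blank and at 75.9, 27.3 and 51.9 CPM in SFD@M (−4.55 ± 0.35, adjusted p = 8.2e-06). Vim, vimentin, went from 1672, 1682 and 1695 CPM to 902, 867 and 913 CPM (−0.91 ± 0.06, adjusted p = 2.7e-06). Among matrix proteases and their inhibitors 8 of 15 rose and 4 fell. Timp3, an inhibitor bound to matrix, had 0 counts in Blank and 1946, 1465 and 1426 CPM in SFD@M, at least 27375-fold higher, while Mmp13, a collagenase, fell from 30.1, 31.8 and 32.8 CPM to 1.44, 2.4 and 1.75 CPM (−4.08 ± 0.16, adjusted p = 1.8e-07).

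The 10 largest falls past the 2-fold test included homeobox genes and Y-linked genes. Rhox2d, a homeobox gene of the X-linked reproductive cluster, was at 94.2, 94.4 and 93.6 CPM in Blank and had 1 count over the SFD@M libraries, a ratio of 0.000206 (95% counting interval 5.21e-06 to 0.00115). Its near copy Rhox2h was at 91.8, 95.3 and 102 CPM against 0.23, 0 and 0 CPM, and reads can be split between such copies. Pax3, a factor of the neural crest and muscle, was at 31.8, 31.8 and 31.7 CPM against 0.0575, 0 and 0 CPM, and Hoxa9, a posterior Hox gene, at 73.3, 75.4 and 65.4 CPM against 0.23, 0 and 0 CPM. Trpa1, Gpr149, Dlx2, Kdm5d, Eif2s3y and Ddx3y complete the 10. In 8 of these 10 genes the counts of SFD@M came from replicate 1 alone, the exceptions being Kdm5d, seen in replicate 3, and Ddx3y, seen in replicates 1 and 3. Of 10 oncofetal growth genes 8 fell and Igf2 and Lin28a rose. Hmga2, an embryonic chromatin protein gene, was at 279, 283 and 277 CPM in Blank and at 2.07, 0.351 and 0.873 CPM in SFD@M (−7.98 ± 0.29, adjusted p = 1.6e-07, and −8.81 without SFD@M replicate 1).

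The highest and the lowest SFD@M library differed by over 1.5 times in the summed level of 14 of 67 gene lists. Genes of red cells and platelets summed to 515, 170 and 90.4 CPM, so the highest library had 5.70 times the lowest, while the same sum was 42 to 44.6 CPM in Blank. Hbb-bs, a beta globin, was at 92.1, 0.701 and 0.582 CPM in SFD@M and at 0.235, 0 and 0.059 CPM in Blank, a call (8.21 ± 2.77, adjusted p = 0.024) that was lost without any single Blank replicate (adjusted p 0.062 to 0.071) and stood at 2.63 without SFD@M replicate 1. Nppa, the atrial natriuretic peptide, was at 138, 3.16 and 20.9 CPM in SFD@M and had 0 counts in Blank, and its call (adjusted p = 0.015) was lost without SFD@M replicate 3 (adjusted p = 0.11). Replicate 1 was also the lowest of the 3 for mitosis genes, at 63.1% of the group mean, for heat shock genes (65%) and for cytotoxic genes (61.6%). Replicate 3 was the highest for ciliated genes, at 125% of the mean. Muc5b, an airway mucin, was at 39.6, 90.4 and 295 CPM, and Bpifa1, a secreted airway defence protein, at 215, 226 and 1301 CPM. Ratios of the highest to the lowest library were 1.76 for neutrophil genes, 1.71 for the unfolded protein response, 1.70 for class II genes, 1.63 for alveolar macrophages and 1.57 for interferon response genes. The summed type 2 genes differed by 1.13 times between the highest and lowest SFD@M library and the fibroblast genes by 1.14 times. Among 10757 genes at 10 CPM or more in SFD@M, 101 had a coefficient of variation above 50%, against 2 of 9043 in Blank. Without SFD@M replicate 1, 13323 genes were called, 7503 higher and 5820 lower.

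**Figure D5:**
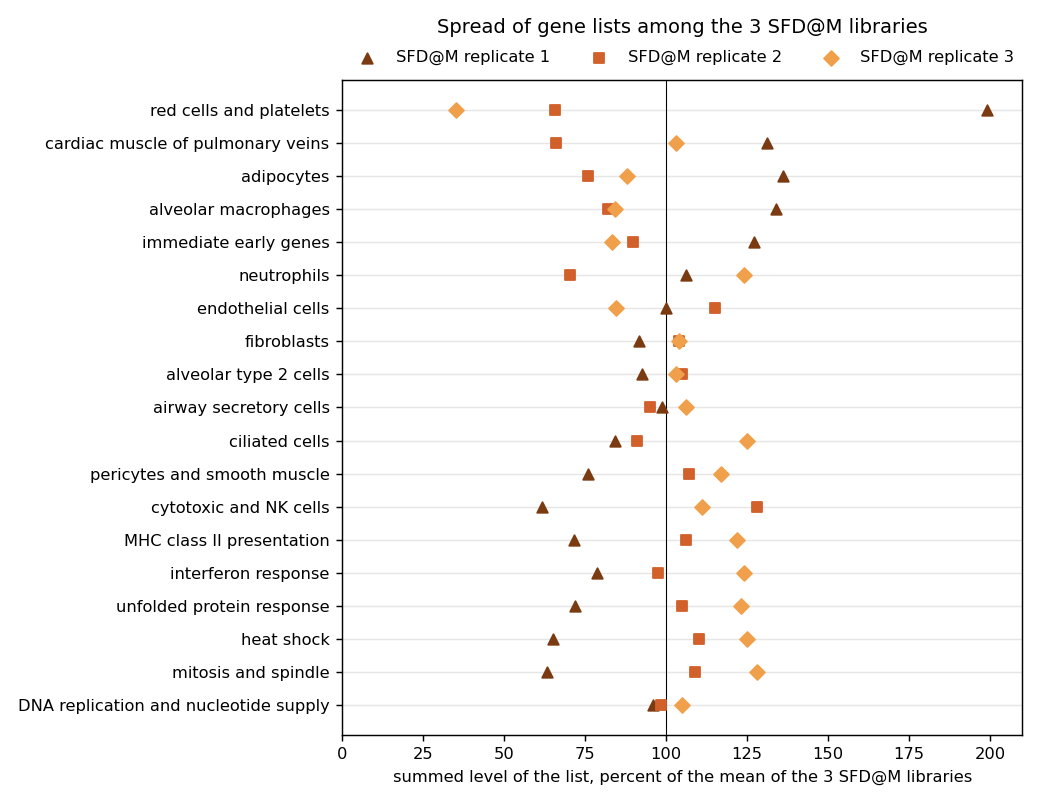
Summed level of 19 gene lists in each of the 3 SFD@M libraries, as a percent of the mean of the 3. Replicate 1 is highest for red cell, adipocyte, cardiac and immediate early genes and lowest for mitosis, heat shock and cytotoxic genes, while type 2, fibroblast and replication lists lie within 10 percent of the mean in each library.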

How the data were processed

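RNA was enriched for polyadenylated transcripts and sequenced, per the labels' protocols. The authors deposited RSEM expected counts and TPM per transcript for all 12 libraries in 1 table. Per the submitters' processing notes, which give no roles, the build was GRCm39 and the tools included RSEM 1.3.1, Bowtie2 and DESeq2 1.4.5. Expected counts of the 70659 transcripts were summed to 19212 Entrez genes and rounded to whole numbers for the fit, which used the 3 Blank and 3 SFD@M libraries. Symbols were found for 19155 genes, and the other 57 held at most 0.29% of a library. A further 40 columns of values in the table were not used. Genes passing edgeR's filterByExpr were scaled by TMM and tested with edgeR 4.0.16 quasi-likelihood (R 4.3.3), for any change and against a 2-fold change (glmTreat), with Benjamini-Hochberg adjustment and a threshold of 0.05. Alternatives used DESeq2 1.42.0 and limma 3.58.1. On simulated counts for 14824 genes, edgeR recovered 91% of 100 genes changed 2-fold and 99% of 100 changed 4-fold. It made 18 false calls among 208, while DESeq2 had 46 false among 242. These rates are for 100 changed genes of each size, whereas 88.1% of the genes tested were called in the SFD@M and Blank libraries. The simulation also gave both groups the same spread and, for unchanged genes, the same mean level. In the data the coefficient of variation beyond counting noise was 1.61% in Blank and 16.2% in SFD@M. How either tool performs when most genes differ, or when the groups differ in spread, was not tested.

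The libraries and gene lists were chosen with earlier results of these data known. The rule allowed the naming of the first 4 of each list, a short set that includes Otub1 and ferroptosis genes, up to 4 called members against their list's direction, up to 4 with the highest level, the 10 largest rises and falls, the 5 most abundant genes of each group and the 10 most variable in SFD@M. The 4 promoters and the motifs described were chosen after their values were seen. Genes of the lists with no match in the table, among them H19, Xist and antigen receptor constant regions, were not analysed here. Besides Otub1, 122 of the 474 tested genes the rule allows are described, and the others are not reported here.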

Additional observations from a re-analysis of the deposited data

How the results depend on the processing

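Under each alternative the counts of genes called stayed within 1.5 times of the reported ones. The balance of directions did not hold throughout. Falls outnumbered rises on log2(TPM + 1), 6741 against 6501, and on log2(TPM + 0.1), 6741 against 6522. Beyond 2-fold, rises still outnumbered falls on log2(TPM + 1), 3688 against 2841. Leaving out 1 library at a time gave 12775 to 13323 called genes and 7774 to 7939 beyond 2-fold. Otub1 remained lower under each alternative run (−0.65 to −0.98, adjusted p at most 0.00051). Of 122 tested genes named besides Otub1, 115 kept direction and call under every alternative. The direction turned on log2(TPM + 1) and log2(TPM + 0.1) for Tigit (−0.79 and −0.88) and Pttg1 (−0.19 and −0.19), Rps19 came to −0.00 and −0.00 with no call, and the cause was not tested. Gpx4, Hmox1, Hbb-bs and Nppa lost their calls under at least 1 alternative. The cGAS-STING list median also turned without SFD@M replicate 3. Of 134 list counts 121 stayed within 1.5 times under every alternative.

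Deviations of same-numbered libraries from their group means correlated at −0.017, −0.028 and 0.025 over 8134 genes. The variance between Blank libraries was only 1.32 to 1.56 times that of counting alone. These correlations therefore cannot tell whether the replicate numbers pair the samples. With the replicate number as a block, 13010 genes were called (7292 higher, 5718 lower), 7764 of them beyond 2-fold (5148 higher, 2616 lower), and Otub1 stood at −0.71 (adjusted p = 6.9e-06). A fit of limma-voom with its own spread for each group, chosen after seeing the data, called 12957 genes. Depth limits genes such as Ifng and Pdcd1, which were under the expression filter.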
